A study of Mus musculus with 6 samples.

Results

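The 8 genes described here encode the enzymes that divide arginine between nitric oxide and ornithine in macrophages, and the enzyme that makes itaconate. They are Nos2, Arg1, Arg2, Ass1, Asl, Gch1, Odc1 and Acod1, and all 8 were among the 22672 genes listed for each library. The genes were chosen by symbol for their place in these pathways, with earlier results of these data known. Nos2 and Acod1 are textbook genes of macrophages stimulated with lipopolysaccharide, and Arg1 is a textbook gene of alternatively activated mouse macrophages. Nos2 protein oxidizes arginine to nitric oxide and citrulline, needs tetrahydrobiopterin as a cofactor, and can be resupplied with arginine when argininosuccinate synthase and lyase rebuild it from citrulline. Arginases split the same substrate into urea and ornithine, which ornithine decarboxylase takes into the polyamines. Acod1 protein acts in mitochondria, where it decarboxylates cis-aconitate from the citric acid cycle to itaconate, an inhibitor of succinate dehydrogenase.

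The RNA came from BV2 cells, an immortalized mouse microglial line, in 6 libraries. In 3 of them the genotype label was shNumb-ctr, which names a hairpin against Numb, and in the other 3 it was shscr-ctr, by the usual reading a scrambled hairpin. No label names a treatment, a vector or a clone, the suffix ctr is not spelled out, and nothing says that the libraries of a group were separate cultures, so p-values measure only the spread between these libraries, which may be technical. The title of the series sets Numb and Ifi204 beside microglial activation and lipopolysaccharide.

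The deposited values, taken to be FPKM, a measure of fragments scaled by transcript length and library total, summed to between 451077 and 455561 per library, and the sequencing depth is unknown. Numb itself was at 38.0, 37.2 and 40.0 FPKM in the libraries labelled shNumb-ctr, against 35.8, 36.7 and 36.1 FPKM in those labelled shscr-ctr (limma adjusted p = 0.137), so the target gene goes against its label and every direction here is that of the labels. Of 12 markers of microglia and macrophages, 11 averaged at least 1 FPKM and P2ry12 averaged 0.838. Their summed level was 1440 to 1570 FPKM under the shNumb-ctr label, against 1368 to 1404 FPKM under shscr-ctr. Most of the sum came from Cd68, at 564 to 635 FPKM under shNumb-ctr and 536 to 551 under shscr-ctr, and Tyrobp, at 349 to 384 under shNumb-ctr and 310 to 327 under shscr-ctr. Itgam, Trem2, Adgre1, Cx3cr1 and Aif1 were also higher under shNumb-ctr without overlap, while Ptprc and Tmem119 overlapped between the groups. The remaining markers of the list, Csf1r, Spi1 and P2ry12, went the other way without overlap. Among the 10594 genes tested below, 16.3% had every shNumb-ctr library above every shscr-ctr library, and 23.6% had every one below. Csf1r was at 87.4 to 95.8 FPKM under shNumb-ctr and 100.2 to 104 under shscr-ctr. Spi1 was at 84.8 to 87.7 under shNumb-ctr and 92.9 to 96.3 under shscr-ctr. P2ry12 was at 0.496 to 0.877 under shNumb-ctr and 0.880 to 1.09 under shscr-ctr. The part of these differences in the results was not tested. Rbfox3, Snap25, Gfap, Aqp4, Mog, Col3a1 and Dcn, markers of neurons, glia and fibroblasts, were listed at 0 in all 6 libraries. The summed oligodendrocyte markers, chiefly Cnp, ran from 16.8 to 17.2 FPKM under the shNumb-ctr label, against 16.5 to 17.8 under shscr-ctr, and no library exceeded a sum of 0.452 FPKM for the markers of neurons, astrocytes, fibroblasts, endothelium or T and B cells.

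Of these pathways, 3 steps were higher in the libraries labelled shNumb-ctr. Ass1, which rebuilds arginine from citrulline, was 1.95-fold higher, Acod1, which makes itaconate, 1.48-fold, and Gch1, which starts tetrahydrobiopterin synthesis, 1.39-fold. Nos2, Asl, Arg1 and Odc1 did not pass the threshold, and Arg2 was too low to be tested. Each of the 7 tested genes was fitted in limma together with all 10594 genes that had at least 1 FPKM in at least 3 libraries, on log2(FPKM + 1), and was called at a Benjamini-Hochberg adjusted p under 0.05. Of these 7, 3 were called higher and 0 lower, where 8.11% of all tested genes were called higher, 10.7% lower and 18.8% in either direction. The enzymes were chosen with earlier results of these data known, so these shares cannot show that the set stands out. The median log2 fold change was 0.20 over the 7 genes and -0.02 over all tested genes. In bulk RNA of this kind, a change in the share of cells that express a gene and a change in the RNA per cell cannot be told apart.

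**Figure D1:**
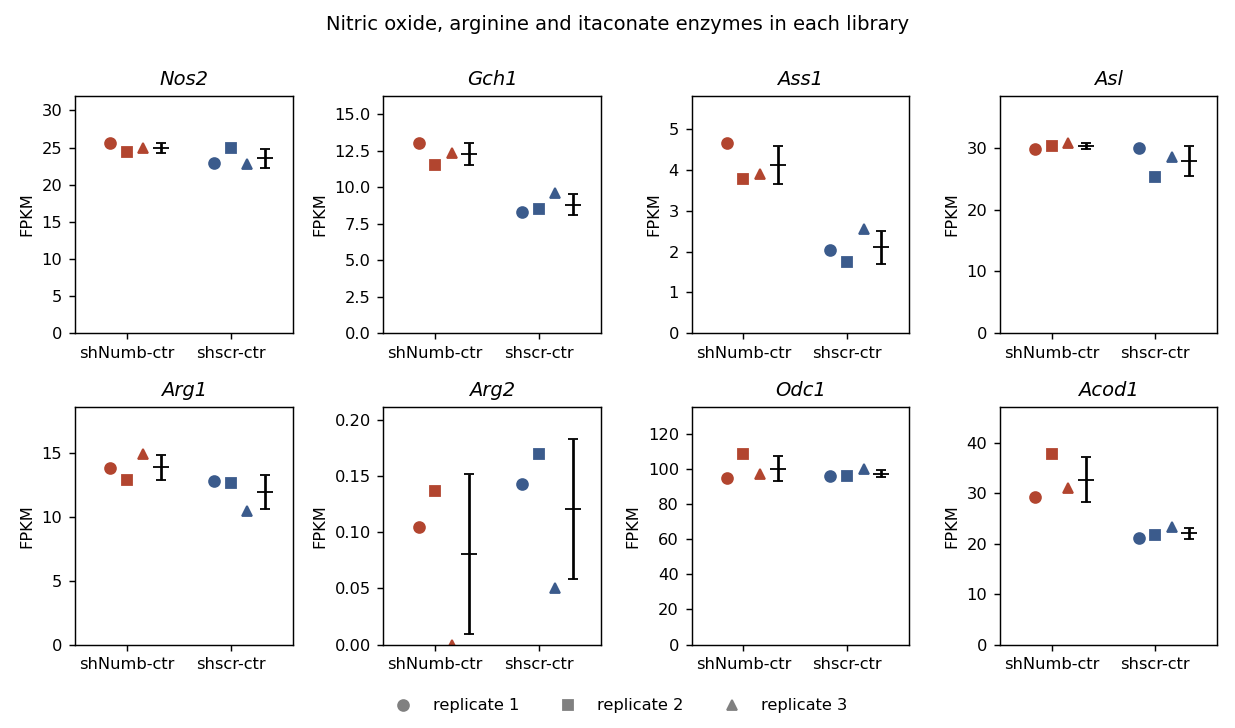
FPKM (vertical axes, each from 0) of the 8 enzymes in the 3 libraries labelled shNumb-ctr (red) and the 3 labelled shscr-ctr (blue), with marker shape for the replicate number and a bar for the mean and SD of each group. The groups stand apart for Gch1, Ass1 and Acod1, and narrowly for Arg1, where the lowest shNumb-ctr library was at 12.95 FPKM and the highest shscr-ctr library at 12.86.

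The DNA just before the start of the 3 higher genes is shown because they moved in the same direction. RefSeq promoter sequences (GRCm38.p6) were matched for 4 of the 8 genes, Acod1, Ass1, Gch1 and Odc1. The 250 bases before the start of Acod1 lie at chr14:103046762-103047011 on the plus strand, those of Gch1 at chr14:47189414-47189663 on the minus strand and those of Ass1 at chr2:31470020-31470269 on the plus strand. Each is written 5′ to 3′ along its gene, and capitals mark every match to a motif searched on both strands.
Acod1: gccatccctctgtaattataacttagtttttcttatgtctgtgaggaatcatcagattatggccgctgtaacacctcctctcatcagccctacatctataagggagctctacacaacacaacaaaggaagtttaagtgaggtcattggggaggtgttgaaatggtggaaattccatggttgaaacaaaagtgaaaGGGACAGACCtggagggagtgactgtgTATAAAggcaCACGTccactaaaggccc
Gch1: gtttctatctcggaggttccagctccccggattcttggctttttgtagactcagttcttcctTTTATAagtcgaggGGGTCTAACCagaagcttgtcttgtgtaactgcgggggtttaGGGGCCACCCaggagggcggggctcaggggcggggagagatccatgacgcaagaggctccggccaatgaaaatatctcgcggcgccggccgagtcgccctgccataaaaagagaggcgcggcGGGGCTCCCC
Ass1: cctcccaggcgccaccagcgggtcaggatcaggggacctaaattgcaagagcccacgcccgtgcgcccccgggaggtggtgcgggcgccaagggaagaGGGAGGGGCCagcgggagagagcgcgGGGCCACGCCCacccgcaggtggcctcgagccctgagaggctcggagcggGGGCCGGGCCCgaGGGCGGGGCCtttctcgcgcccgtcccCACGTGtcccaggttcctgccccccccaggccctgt
The motifs were a loose NF-kB form (GGG, any 5 bases, then CC), the GAS element of STAT factors (TTCNNNGAA), an ISRE form of IRF factors (a pair of GAAA repeats with any 2 bases between them), AP-1 (TGANTCA), the E-box (CACGTG), the core of the hypoxia response element (ACGTG, which the E-box contains) and the TATA box (TATAAA). The Acod1 window held a TATA box match from 28 to 23 bases before the start, an NF-kB form match from 55 to 46 bases before it and a hypoxia core match from 18 to 14 bases before it. The Gch1 window held NF-kB form matches at 3 places, the nearest from 10 to 1 bases before the start, and a TATA box match on the opposite strand far upstream. The Ass1 window held an E-box from 36 to 31 bases before the start and NF-kB form matches that overlap in part. No letters of the GAS, ISRE or AP-1 forms were found in the 3 windows. Of 32526 promoter windows of that length, 46.0% held the NF-kB form, 16.65% the hypoxia core, 12.3% the TATA box and 6.04% the E-box. These shares are over windows of every base composition, while the fixed letters of the NF-kB form are all G or C. The 3 windows also differed in base composition, with 44.4% G and C in Acod1, 59.2% in Gch1 and 75.6% in Ass1, where the median window had 52.4%. The Odc1 window, at 80.0% G and C, held 1 match, to the NF-kB form. A match is a description of letters, and binding was not measured.

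**Figure D2:**
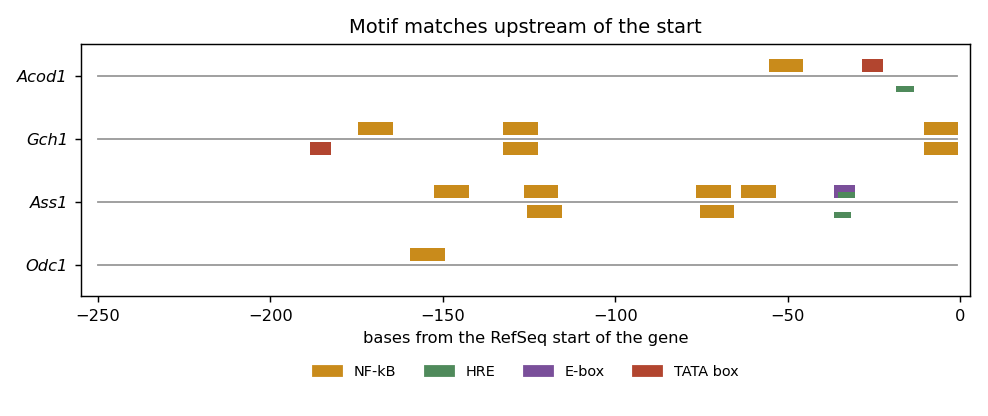
Motif matches in the 250 bases before the RefSeq start of Acod1, Gch1, Ass1 and Odc1 (horizontal axis, bases from the start), with boxes above the line on the strand of the gene and below it on the other strand. Acod1 has the TATA box match close to its start, and NF-kB form matches lie in all 4 windows, also in that of Odc1, which was not called.

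Nos2 (ENSMUSG00000020826, chromosome 11 in GENCODE release M21), the inducible nitric oxide synthase, was already present under both labels. Its level was 25.6, 24.3 and 24.9 FPKM in the libraries labelled shNumb-ctr, against 22.9, 25.0 and 22.7 FPKM in those labelled shscr-ctr. The second shscr-ctr library lay above 2 of the 3 shNumb-ctr libraries, so the groups overlapped. The log2 fold change was 0.08, with a 95% interval of -0.02 to 0.18 (limma adjusted p = 0.229).

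Gch1 (ENSMUSG00000037580, chromosome 14), GTP cyclohydrolase, which catalyses the first and rate-limiting step of tetrahydrobiopterin synthesis, rose. Its level was 13.0, 11.5 and 12.3 FPKM in the libraries labelled shNumb-ctr, against 8.27, 8.52 and 9.63 FPKM in those labelled shscr-ctr. Every shNumb-ctr library was above every shscr-ctr library. The means were 12.3 ± 0.759 FPKM under shNumb-ctr and 8.81 ± 0.723 FPKM under shscr-ctr (SD, n = 3 each), a log2 fold change of 0.44 with a 95% interval of 0.28 to 0.59 and an SE of 0.067 (limma adjusted p = 0.0052). Within a library, Gch1 stood at 0.508, 0.472 and 0.494 of the Nos2 FPKM under shNumb-ctr, against 0.362, 0.341 and 0.423 under shscr-ctr, a ratio chosen after the values were seen and not tested.

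Of 7 other genes of tetrahydrobiopterin synthesis and recycling, 6 were tested, and 1 was called higher and 0 lower. Their median log2 fold change was 0.07. The called gene was Pcbd2, a pterin dehydratase of the recycling arm, at 26.5 ± 0.370 FPKM under shNumb-ctr and 23.7 ± 1.08 under shscr-ctr (SD, n = 3 each, log2 0.16, limma adjusted p = 0.0326). Its call was lost in 7 of 14 alternative analyses, with adjusted p up to 0.0912. Pts and Spr, the enzymes that complete the synthesis after Gch1, had log2 fold changes of 0.03 and 0.11 and were not called, nor was Qdpr, which recycles the cofactor (log2 -0.0022). Gchfr, the feedback regulator of the Gch1 protein, was at 14.4 ± 0.993 FPKM under shNumb-ctr and 13.0 ± 0.857 under shscr-ctr (SD, n = 3 each) and was not called (log2 0.14, limma adjusted p = 0.161). Pcbd1 was listed at 0 throughout.

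Ass1 (ENSMUSG00000076441, chromosome 2), argininosuccinate synthase, joins citrulline to aspartate and had the largest fold change of the 7 tested enzymes, at a low level. Its level was 4.65, 3.78 and 3.91 FPKM in the libraries labelled shNumb-ctr, against 2.03, 1.75 and 2.54 FPKM in those labelled shscr-ctr. Every shNumb-ctr library was above every shscr-ctr library. The means were 4.11 ± 0.471 FPKM under shNumb-ctr and 2.11 ± 0.402 FPKM under shscr-ctr (SD, n = 3 each), a log2 fold change of 0.72 with a 95% interval of 0.48 to 0.97 and an SE of 0.107 (limma adjusted p = 0.0048). On the log2(FPKM + 0.1) scale the difference was 0.94, since a pseudocount of 1 shrinks the change of a gene at this level. Of 165 windows of 50 bases along its longest transcript, 55.2% also occur in the processed pseudogene Gm5424, which was not analysed here, so the Ass1 level is uncertain.

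Asl (ENSMUSG00000025533, chromosome 5), argininosuccinate lyase, which releases arginine in the next step, was at 29.7, 30.3 and 30.8 FPKM in the libraries labelled shNumb-ctr, against 30.0, 25.2 and 28.5 FPKM in those labelled shscr-ctr. The groups overlapped, since the first shscr-ctr library lay above the lowest shNumb-ctr library. The log2 fold change was 0.12, with a 95% interval of -0.02 to 0.25 (limma adjusted p = 0.197). On the FPKM scale, which is per length, Ass1 was thus the scarcer of the pair, with an Ass1 to Asl ratio of 0.157, 0.125 and 0.127 under shNumb-ctr, against 0.0677, 0.0695 and 0.0893 under shscr-ctr. The ratio carries the same uncertainty as the Ass1 level and was not tested.

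**Figure D3:**
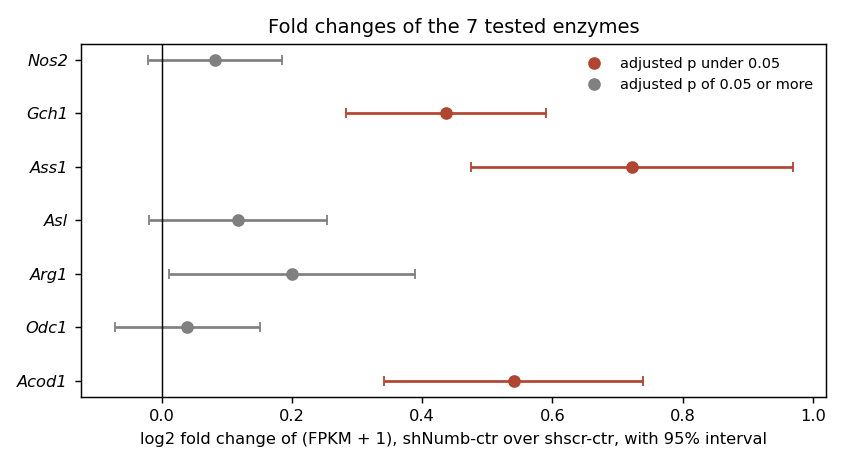
Log2 fold change of FPKM + 1, shNumb-ctr over shscr-ctr (horizontal axis), of the 7 tested enzymes, as points with 95% intervals from limma that are not adjusted for the number of genes. Ass1, Acod1 and Gch1 (red) passed an adjusted p of 0.05, with values of 0.72, 0.54 and 0.44, and Nos2, Asl, Arg1 and Odc1 (grey) did not.

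Arginine enters the cell through cationic transporters. Of 5 transporter genes tested, 1 was called lower and 0 higher, with a median log2 fold change of -0.07. Slc7a1, the main housekeeping cationic amino acid transporter, fell to 22.1 ± 0.293 FPKM under shNumb-ctr, against 25.5 ± 1.26 under shscr-ctr (SD, n = 3 each, log2 -0.19, limma adjusted p = 0.0178), a call lost in 4 of 14 alternative analyses. Slc7a2, the transporter known to supply Nos2 in macrophages, was at 7.84, 7.12 and 8.07 FPKM under shNumb-ctr, against 7.75, 7.65 and 8.40 under shscr-ctr, and overlapped between the groups.

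Of 14 other genes of nitric oxide synthesis, its regulation and its signalling, 7 were tested, and 0 were called higher and 1 lower, with a median log2 fold change of 0.05. Nosip, a protein that binds endothelial nitric oxide synthase, fell to 20.2 ± 1.05 FPKM under shNumb-ctr, against 23.1 ± 1.03 under shscr-ctr (SD, n = 3 each, log2 -0.18, limma adjusted p = 0.0380), a call lost in 9 of 14 alternative analyses. The neuronal synthase gene Nos1 was at 2.26, 2.44 and 2.74 FPKM under shNumb-ctr, against 1.501, 2.95 and 1.52 under shscr-ctr, with no call. Gucy1b1, a subunit of the guanylate cyclase that senses nitric oxide, was listed at 0 in all 6 libraries, and its partner Gucy1a1 and the cyclic GMP kinase gene Prkg1 were listed above 0 only in the third shNumb-ctr library, at 0.0140 and 0.0095 FPKM.

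Arg1 (ENSMUSG00000019987, chromosome 10), the cytosolic arginase, competes with Nos2 for arginine. Its level was 13.8, 12.95 and 14.9 FPKM in the libraries labelled shNumb-ctr, against 12.86, 12.7 and 10.5 FPKM in those labelled shscr-ctr. All 3 shNumb-ctr libraries lay above all 3 shscr-ctr libraries, though the nearest pair nearly touched. With it, 4 of the 7 tested enzymes had every shNumb-ctr library above every shscr-ctr library, as did 16.3% of all tested genes. In the other direction, 0 of the 7 had every shNumb-ctr library below, where 23.6% of all tested genes did. These shares carry the same limit, since the enzymes were chosen with earlier results of these data known. The log2 fold change of Arg1 was 0.20 (SE 0.082, 95% interval 0.01 to 0.39) and missed the threshold (limma adjusted p = 0.123). The Nos2 to Arg1 ratio of FPKM was 1.85, 1.88 and 1.67 under shNumb-ctr, against 1.78, 1.97 and 2.18 under shscr-ctr, and these ranges overlapped.

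Arg2 (ENSMUSG00000021125, chromosome 12), the mitochondrial arginase, was close to 0. It was at 0.105 and 0.137 FPKM in the first and the second library labelled shNumb-ctr and listed at 0 in the third, against 0.143, 0.169 and 0.050 FPKM in those labelled shscr-ctr. It missed the filter in every library and was not tested in the main analysis. With no filter on low values its log2 fold change was -0.05, with a 95% interval of -0.20 to 0.09 (limma adjusted p = 0.638). Its exons overlap those of Vti1b and Gm48780 on the opposite strand in GENCODE M21, and the sources used here do not state whether counting used the strand.

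Odc1 (ENSMUSG00000011179, chromosome 12), ornithine decarboxylase, was the most abundant of the 8 genes on the FPKM scale under both labels. Its level was 95.02, 108 and 97.3 FPKM in the libraries labelled shNumb-ctr, against 96.2, 96.0 and 99.8 FPKM in those labelled shscr-ctr. Only the second shNumb-ctr library was above the range of the others. The log2 fold change was 0.04, with a 95% interval of -0.07 to 0.15 (limma adjusted p = 0.601), and it was -0.02 without that library. As many as 42.1% of the Odc1 windows are found elsewhere too, mainly in processed pseudogenes, so its level is uncertain.

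Of 13 other genes of polyamine and hypusine synthesis, all tested, 2 were called higher and 2 lower, and 0 and 0 with the replicate number as a block in limma, with a median log2 fold change of -0.07. Srm, spermidine synthase, fell to 183 ± 5.11 FPKM under shNumb-ctr, against 204 ± 6.05 under shscr-ctr (SD, n = 3 each, log2 -0.16, limma adjusted p = 0.0159). Amd1, which makes the aminopropyl donor, fell to 23.3 ± 1.14 FPKM under shNumb-ctr, against 26.3 ± 0.346 under shscr-ctr (SD, n = 3 each, log2 -0.16, limma adjusted p = 0.0294), but 87.7% of its windows are shared, mainly with Amd2, and its level is uncertain. Sat1, which acetylates polyamines for breakdown and export, rose to 227 ± 8.72 FPKM under shNumb-ctr, against 199 ± 10.4 under shscr-ctr (SD, n = 3 each, log2 0.19, limma adjusted p = 0.0234). Azin1, an antizyme inhibitor that protects the Odc1 protein from degradation, rose to 51.8 ± 2.18 FPKM under shNumb-ctr, against 45.3 ± 3.45 under shscr-ctr (SD, n = 3 each, log2 0.19, limma adjusted p = 0.0490). These 4 calls were lost in 3, 6, 6 and 8 of 14 alternative analyses, in the order given.

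Of 13 genes of ornithine, proline, creatine and the urea cycle, 7 were tested, and 1 was called higher and 1 lower, with a median log2 fold change of -0.03. Azin2, the second antizyme inhibitor, rose to 4.50, 4.29 and 4.54 FPKM under shNumb-ctr, against 2.38, 3.03 and 2.73 FPKM under shscr-ctr. The groups stood apart, and Azin2 was 1.64-fold higher (log2 0.56, SE 0.076, limma adjusted p = 0.0037) with the call kept in all 13 alternative analyses that tested it. Oat, which carries ornithine toward proline, was not called (log2 -0.03). The urea cycle genes Otc, Cps1 and Nags, which the liver uses, were listed at 0 in all 6 libraries.

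Acod1 (ENSMUSG00000022126, chromosome 14), the itaconate-forming decarboxylase, had the largest difference in FPKM of the 8 genes. Its level was 29.3, 37.8 and 31.1 FPKM in the libraries labelled shNumb-ctr, against 21.2, 21.7 and 23.3 FPKM in those labelled shscr-ctr. Every shNumb-ctr library was above every shscr-ctr library, and the second shNumb-ctr library was the highest. The means were 32.7 ± 4.48 FPKM under shNumb-ctr and 22.1 ± 1.11 FPKM under shscr-ctr (SD, n = 3 each), a log2 fold change of 0.54 with a 95% interval of 0.34 to 0.74 and an SE of 0.086 (limma adjusted p = 0.0062). None of its transcript windows was shared with another gene.

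In the order of FPKM levels, Acod1 took a different place under each label. Under shNumb-ctr the means ran from Odc1 at 100.2 through Acod1 at 32.7, Asl at 30.3, Nos2 at 24.9, Arg1 at 13.9, Gch1 at 12.3 and Ass1 at 4.11 to Arg2 at 0.0805 FPKM. Under shscr-ctr they ran from Odc1 at 97.3 through Asl at 27.9, Nos2 at 23.5, Acod1 at 22.1, Arg1 at 11.998, Gch1 at 8.81 and Ass1 at 2.11 to Arg2 at 0.121 FPKM. Neighbours whose libraries overlapped were Acod1 and Asl, and Arg1 and Gch1, under shNumb-ctr, and Nos2 and Acod1 under shscr-ctr. The Acod1 to Nos2 ratio was 1.14, 1.55 and 1.249 under shNumb-ctr, against 0.927, 0.868 and 1.03 under shscr-ctr, and the groups did not overlap in that ratio, which was not tested.

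The second library labelled shNumb-ctr stood apart in several genes of acute stimulation, and Acod1 was highest there. Of 10 such genes (Il1b, Il6, Cxcl10, Lcn2, Tnf, Ptgs2, Il1a, Il12b, Cxcl2 and Saa3), 9 were highest in that library, all but Il12b. This list was chosen with earlier results of these data known, so the count only describes the library. The share of all tested genes that were highest there was not counted. Of the 6 that were tested, 0 were called higher and 0 lower by limma, with a median log2 fold change of 0.39. Lcn2, a secreted iron-scavenging protein, reached 31.6 FPKM there, while the highest of the remaining 5 libraries had 7.69 FPKM. Cxcl2, a neutrophil chemokine, reached 11.8 FPKM there and no more than 1.21 FPKM elsewhere. The gap was smaller for Tnf, at 38.1 FPKM there and up to 35.1 elsewhere, and for Ptgs2, at 10.5 FPKM there and up to 8.18 elsewhere. Nos2 was at 24.3 FPKM there, lower than in the first and the third shNumb-ctr library, at 25.6 and 24.9. That library also had the most genes listed above 0, 13823, where the others had 13513 to 13599. Without that library Acod1 was at 30.2 FPKM under shNumb-ctr and 22.1 under shscr-ctr, 1.37-fold higher, with no overlap (log2 0.44, limma adjusted p = 0.0056). Gch1 and Ass1 were lower in that library than in the other shNumb-ctr libraries, and without it they were 1.44-fold and 2.03-fold higher than under shscr-ctr (log2 0.48 and 0.77, limma adjusted p = 0.0094 and 0.0114).

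**Figure D4:**
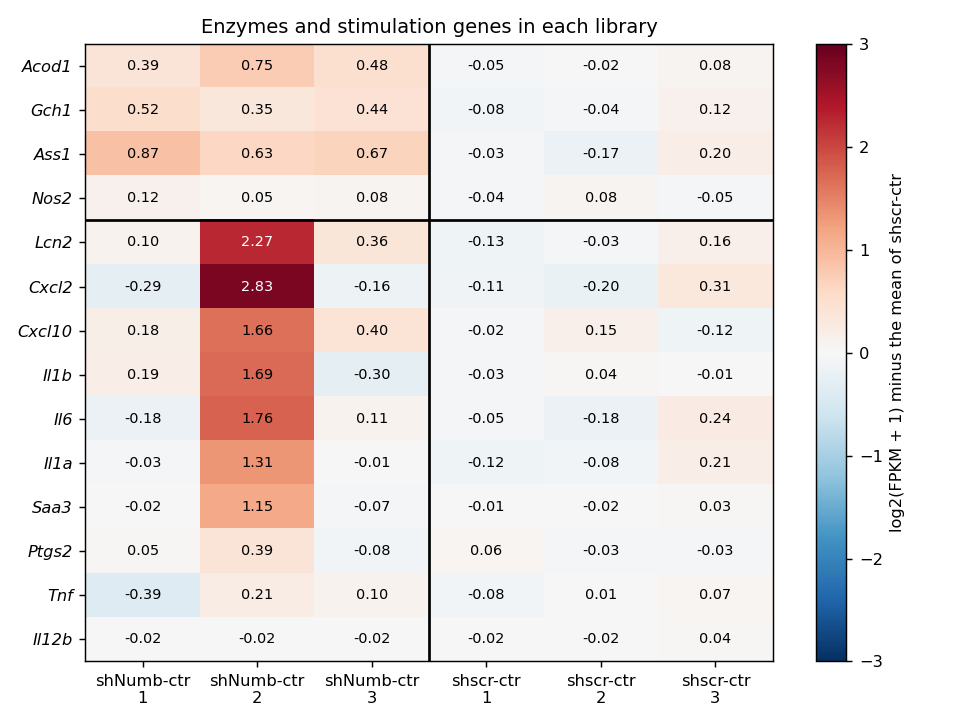
Log2(FPKM + 1) in each library minus the mean of the 3 shscr-ctr libraries, for 4 of the enzymes (above the line) and the 10 stimulation genes (below it), with colour and printed value showing the difference. In the second shNumb-ctr library, Lcn2, Cxcl2, Cxcl10, Il1b, Il6, Il1a and Saa3 are higher by 1.15 to 2.83, Ptgs2 by 0.39 and Tnf by 0.21, and Il12b is listed at 0, while Acod1 is higher in all 3 shNumb-ctr libraries, by 0.39, 0.75 and 0.48.

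Of 16 genes that supply citrate and aconitate, carry or break down itaconate, or encode succinate dehydrogenase, 15 were tested, and 1 was called higher and 0 lower, with a median log2 fold change of 0.01. Clybl, which clears the citramalyl-CoA formed when itaconate is broken down, rose to 28.2, 28.7 and 29.3 FPKM under shNumb-ctr, against 25.0, 26.0 and 25.2 FPKM under shscr-ctr. The groups stood apart (log2 0.17, SE 0.034, limma adjusted p = 0.0135), and the call was lost in 1 of 14 alternatives, without the first shscr-ctr library (adjusted p = 0.0507). The succinate dehydrogenase genes Sdha, Sdhb, Sdhc and Sdhd had log2 fold changes of -0.03, -0.04, 0.09 and -0.07, with no call.

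Of 17 genes of transcription factors known to act on Nos2, Arg1, Acod1 or, for Myc, Odc1, 16 were tested, and 1 was called higher and 3 lower. Their median log2 fold change was -0.0013. Stat6, which carries the interleukin-4 signal to Arg1, fell to 37.9, 39.4 and 39.3 FPKM under shNumb-ctr, against 45.1, 44.2 and 44.7 FPKM under shscr-ctr (log2 -0.20, SE 0.030, limma adjusted p = 0.0056). Irf1, an interferon-induced factor that acts on Nos2, fell to 12.7 ± 0.224 FPKM under shNumb-ctr, against 14.2 ± 0.331 under shscr-ctr, and Irf8 fell to 36.0 ± 0.414 against 39.5 ± 1.12 (SD, n = 3 each, log2 -0.16 and -0.13, limma adjusted p = 0.0294 and 0.0305). The calls for Irf1 and Irf8 were lost in 7 and 9 of 14 alternatives. Myc, known as a transcriptional activator of Odc1, was at 1.43, 1.47 and 1.15 FPKM under shNumb-ctr, against 0.752, 0.587 and 0.434 under shscr-ctr (log2 0.56, limma adjusted p = 0.0100), and it passed the filter only through the shNumb-ctr libraries, where it was higher. Myc was tested in 10 of the 14 alternatives and called in those, but no fit that left out a shNumb-ctr library tested it.

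Among 8 other genes of alternative activation, 5 were tested, and 0 were called higher and 2 lower, with a median log2 fold change of 0.05. Over all tested genes, 8.11% were called higher and 10.7% lower, and the list was chosen with earlier results of these data known. Clec10a, Msr1 and Mgl2 had log2 fold changes of 0.05, 0.27 and 0.07, overlapped between the groups and were not called. Il4ra, the interleukin-4 receptor chain that signals through Stat6, fell to 4.85, 5.29 and 4.95 FPKM under shNumb-ctr, against 6.45, 7.57 and 6.97 FPKM under shscr-ctr (log2 -0.41, SE 0.065, limma adjusted p = 0.0064). Mrc1, the mannose receptor, fell to 0.950, 0.942 and 1.27 FPKM under shNumb-ctr, against 1.91, 1.69 and 1.93 under shscr-ctr (log2 -0.47, SE 0.089, limma adjusted p = 0.0115). Both calls held in each alternative that tested the gene, 14 for Il4ra and 13 for Mrc1, while Arg1 was not called in any of 14. Under shNumb-ctr, only the third library had at least 1 FPKM of Mrc1. Mrc1 thus passed the filter mainly through the shscr-ctr libraries, where it was higher. Chil3, Retnla and Cd163 were listed at 0 in all 6 libraries.

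**Figure D5:**
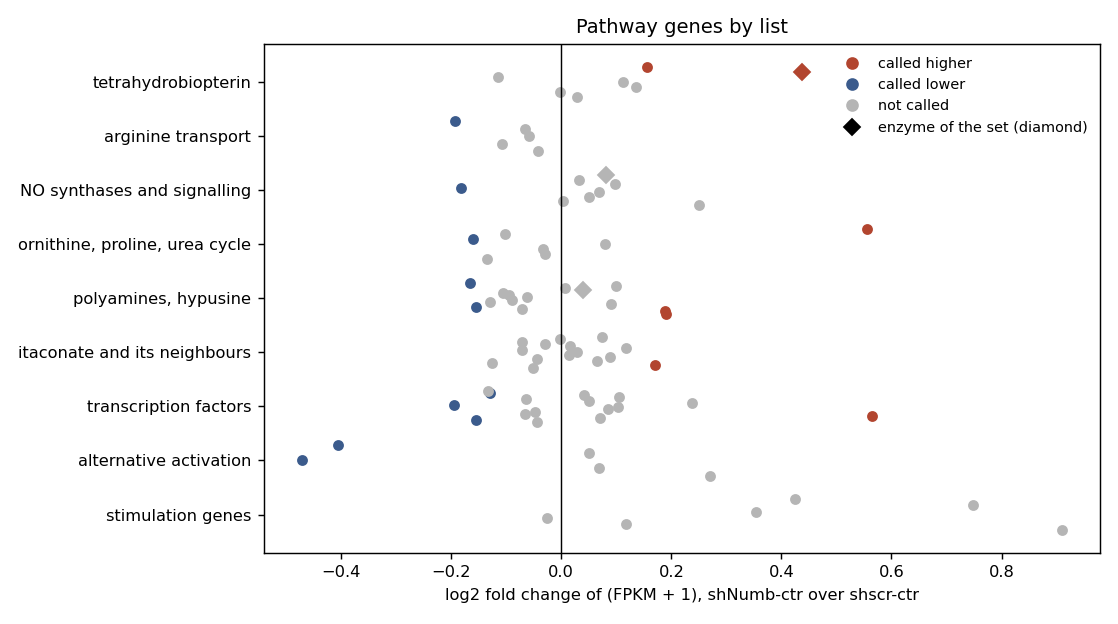
Log2 fold change of FPKM + 1, shNumb-ctr over shscr-ctr (horizontal axis), of each tested gene in 9 pathway lists, with called genes in colour and the enzymes Gch1, Nos2 and Odc1 as diamonds. Gch1 at 0.44 lies apart from the other tetrahydrobiopterin genes, and the called pathway genes lie on both sides of 0.

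Over the 9 lists together, 80 of 103 genes outside the 8 enzymes were tested, and 6 were called higher and 10 lower, with a median log2 fold change of 0.0044. These are 7.5% higher and 12.5% lower, where 8.11% and 10.7% of all tested genes were called. With median-of-ratios rescaling or quantile normalization the counts were 7 higher and 7 lower. The calls of Azin2, Stat6, Mrc1 and Il4ra were kept in every alternative that tested the gene, 11 others were lost in at least 1, and that of Myc was not checked without a shNumb-ctr library. Without the first shNumb-ctr library the counts were 2 higher and 3 lower, without the second 3 and 6, without the third 3 and 5, without the first shscr-ctr library 3 and 3, and without the second 5 and 5.

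The profiles most like those of the called enzymes were sought among tested genes averaging 5 FPKM or more, by the root-mean-square difference of mean-centred log2 values over the 6 libraries. Nearest to Acod1 were Arrdc4, Il1rn, the interleukin-1 receptor antagonist, and the chemokine gene Ccl2, at differences of 0.043, 0.065 and 0.072, where the Acod1 profile itself had a root-mean-square size of 0.29. Ccl2 shared the high second shNumb-ctr library, at 81.9, 114 and 90.8 FPKM under shNumb-ctr, against 55.2, 59.4 and 65.4 under shscr-ctr. Nearest to Gch1 were Srgap3 and Smtn, at 0.045 and 0.046, and nearest to Ass1 were Rnaset2a, Pakap and Mamdc2, at 0.107, 0.107 and 0.135. Rnaset2a and Pakap share 80.9% and 31.0% of their windows with other genes and are uncertain. At least 8246 genes were searched for each enzyme over the same 6 libraries, and the genes named here share the group difference of the enzyme they match.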

How the data were processed

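RNA of BV2 cells was sequenced by a company after lysis in TRIzol, per the labels' protocols. The authors deposited 1 value per gene and library. The headers name no unit, and the deposited values were read as FPKM because they are fractional and sum to about the same total in each library; TPM cannot be told apart from it. CASAVA and DESeq2 are named with no role in the submitters' processing notes; for the aligner, genome build and annotation the entry is "not given in the sources used here". With no counts, depth and counting error are unknown.

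Values were analysed as log2(FPKM + 1). Both groups of 3 libraries entered 1 fit in limma 3.58.1 (R 4.3.3) as shNumb-ctr over shscr-ctr, with a mean-dependent prior variance and no covariate, over 10594 genes with at least 1 FPKM in at least 3 libraries, two-sided, with Benjamini-Hochberg adjustment and calls at 0.05. The fit was tested on simulated data. The 14 alternatives were another pseudocount, 2 filters, 2 scalings, 2 prior variances, a replicate block and leaving out each library. The members and lists were chosen with earlier results of these data known. Beside the 8 enzymes, the text names the called genes of each list, the 3 nearest profiles of each called enzyme and the stimulation genes; other genes, such as Gchfr, Nos1 and Slc7a2, were chosen for their role after their values were seen. A few genes that these rules name are not reported here. Shared sequence was measured in windows of 50 bases, every 10 bases, against GENCODE M21 transcripts (Python 3.11.15). Promoters came from RefSeq (GRCm38.p6). No label names a batch.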

Additional observations from a re-analysis of the deposited data

How the results depend on the processing

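The 3 higher enzymes kept their direction and their call in each alternative that tested them, 14 for Acod1 and Gch1 and 13 for Ass1, which a filter of at least 5 FPKM removed. Log2 fold changes ran from 0.44 to 0.61 for Acod1, 0.40 to 0.50 for Gch1 and 0.64 to 0.94 for Ass1, with limma adjusted p of 0.0044 to 0.0262, 0.0026 to 0.0225 and 0.0020 to 0.0214. Nos2, Arg1, Asl and Odc1 were not called in any alternative. With a library left out, the Odc1 log2 fold change ran from -0.017 to 0.076. The value was below 0 only without the second shNumb-ctr library, where Odc1 was highest. Why Odc1 was highest there was not tested. The number of genes called over all tested genes was 859 higher and 1130 lower. The excess of lower calls turned over with rescaling, to 994 higher and 880 lower by median of ratios and 946 and 918 by quantile normalization. The counts were 520 and 559 with the replicate block, and ran from 499 to 671 and from 465 to 869 with a library left out. The counts were 499 and 465 without the first shscr-ctr library, 569 and 630 without the third, 515 and 623 without the first shNumb-ctr library and 543 and 608 without the third. Over the pathway lists, 6 genes were higher and 10 lower, and 7 and 7 under either rescaling. With the replicate block 3 were higher and 3 lower, with no trend in the prior variance 3 were higher, and with a library left out 2 to 5 were higher and 3 to 9 lower. Fewer libraries or residual degrees of freedom enter the block and the left-out-library fits. The cause of the changed counts was not tested for these fits or for the fit with no trend. The labels link libraries of the groups only by replicate number. Deviations of same-numbered libraries correlated at 0.0067 to 0.047, and those of differently numbered libraries at -0.088 to 0.066. With so few libraries, these values cannot show whether the libraries were paired. The block changed the call of no enzyme. The unknown depth limits what can be said of Arg2 and other genes near 0.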

Other observations

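Of the 12 nearest tested genes, the nearest pair on each side of Ass1, Gch1 and Acod1 by GENCODE M21 position, 0 were called higher and 4 lower in limma, where 8.11% of all tested genes were called higher and 10.7% lower. The called genes were Fubp3 and Exosc2 for Ass1 (log2 -0.17 and -0.21, limma adjusted p = 0.0170 and 0.0203), Wdhd1 for Gch1 (log2 -0.24, limma adjusted p = 0.0122) and Kctd12 for Acod1 (log2 -0.19, limma adjusted p = 0.0489). In that order they lay at 99.65, 180.6, 87.25 and -72.17 kb from the enzyme gene, between gene midpoints along the chromosome. The farthest of the 12, Uchl3, lay at -1377 kb from Acod1. The calls for Fubp3, Exosc2 and Kctd12 were lost in 2, 3 and 10 of 14 alternatives. These neighbours were looked up after the values of the enzymes had been seen.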
